A study of Mus musculus with 6 samples.

Results

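The core autophagy machinery was taken here as 40 genes, chosen by symbol from the 27179 genes of the count table, and all 40 were found with 1 row each. Autophagy receptors were not among them. The samples were mouse embryonic stem cells (mESCs, source of all 6 libraries) kept on gelatin in medium with serum and LIF, a cytokine that holds back differentiation. All 6 libraries, controls included, came from cells expressing Tfe3-ERT2, murine Tfe3 made responsive to tamoxifen, which moves the protein into the nucleus. The libraries called 4OHT came from 3 samples given 4-hydroxytamoxifen at 1 µg/mL for 48 h, and those called EtOH from 3 samples given ethanol, its vehicle. The labels do not give the promoter that drives the fusion, whether the line is 1 clone, or a line without the fusion given the drug. They also do not say whether the 3 samples of a group were separate cultures, so the p-values speak only for the spread among these libraries.

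Autophagy encloses cytoplasm in a double membrane, the autophagosome, which then fuses with a lysosome. The ULK kinase complex starts the process, and a complex around the lipid kinase Vps34 marks the membrane with a phosphoinositide that WIPI proteins read. ATG2 and ATG9 proteins supply lipid, and an enzyme cascade related to ubiquitin transfer attaches ATG8 proteins (LC3 and GABARAP) to the membrane. SNARE proteins and tethers then join the closed vesicle to the lysosome. Tfe3 belongs to the MiT/TFE factors, known for binding E-box motifs in the promoters of lysosomal and autophagy genes.

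Library totals lay between 4092877 and 6427880 counts, and the 40 members together took between 0.176% and 0.184% of the counts in EtOH and between 0.206% and 0.211% in 4OHT. A count of 3, used as the floor of a single library, was worth between 0.469 and 0.738 CPM (CPM are counts divided by the TMM-scaled library total, on the usual scale of that unit), and that floor covers counting error only. Tfe3 was at 1004 to 1074 CPM in EtOH and at 827 to 836 CPM in 4OHT, in counts that cannot separate the endogenous gene from the fusion. The summed level of 8 mESC markers was 4483 to 4648 CPM in EtOH and 4714 to 4723 CPM in 4OHT, with 4 of them called higher (Esrrb 1.56-fold and Klf4 1.39-fold among them) and 2 lower (log2 fold changes of −0.35 for Tdgf1 and −0.18 for Pou5f1). Markers of fibroblasts (8 genes, such as feeder cells would carry) summed to between 15.1 and 25.3 CPM and those of primitive endoderm (7 genes) to between 15.0 and 28.1 CPM over all libraries. Trophectoderm markers moved with the groups: their sum over 9 genes was 462 to 485 CPM in EtOH and 989 to 1024 CPM in 4OHT, 7 rose, and most of the sum was Krt8 and Krt18. Lineage factors of that list rose too: Hand1 5.89-fold, Eomes 2.61-fold, Gata3 2.24-fold and Tfap2c 1.16-fold by edgeR, of which Hand1, Eomes and Gata3 were low, with 4OHT means of 8.96, 13.1 and 7.93 CPM. Elf5 (1 count in all libraries together) and Cdx2 (5 to 14 counts per library) were too low to be kept for testing. The part of that difference in the results below was not tested, and in bulk RNA a change in the share of cells that express a gene cannot be told apart from a change in RNA per cell.

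Of the 39 members that passed the filter on low counts, 19 rose in 4OHT, none fell and 20 did not pass the test (edgeR quasi-likelihood test, Benjamini-Hochberg adjusted p under 0.05 over 12345 genes). Over all tested genes, 42% were called, 21.4% higher and 20.6% lower, against 48.7% and 0% of the tested members. Unadjusted p was under 0.05 in 22 members with a higher level and in 0 with a lower one, and limma-voom and DESeq2 also called 0 members lower. The rises were small: 14 members rose with a log2 fold change of at least 0.32 and 0 fell by as much (15% of all tested genes were called higher and 10.4% lower at that size), 4 rose at least 1.5-fold (7.84%) and 0 at least 2-fold (2.86%). The median log2 fold change of the tested members was 0.20, with quartiles of 0.08 and 0.39, beside a median of −0.0024 and quartiles of −0.19 and 0.23 over all tested genes. A log2 fold change above 0 was found in 31 of the 39 members and in 49.7% of all tested genes. DESeq2 called 12 members higher in place of 19, all 12 of them among the 19. It gave an adjusted p to 13298 genes, all 40 members included, and called 1830 of these genes higher. The edgeR count was between 16 and 21 when single libraries were left out.

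**Figure D1:**
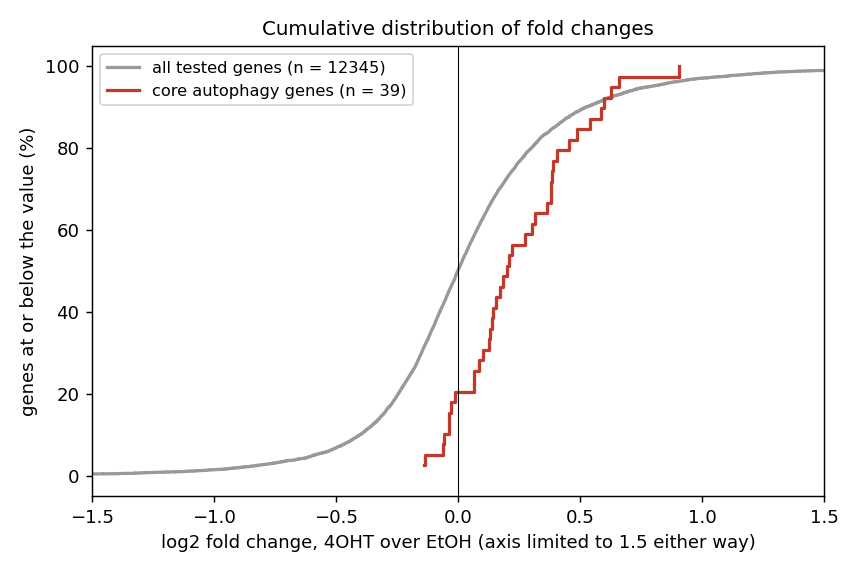
Cumulative share of genes (vertical axis, %) at or below each log2 fold change, 4OHT over EtOH (horizontal axis), for all 12345 tested genes in grey and the 39 tested members in red. The red curve crosses 50% at 0.20 and the grey one close to 0, and no member lies beyond −0.14 on the lower side or 0.90 on the upper side.

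Over all tested genes, 21.4% were called higher and the median log2 fold change was −0.0024. All 5 fusion genes rose, with a median log2 fold change of 0.46. Of the conjugation genes 8 of 15 tested rose (median 0.22), of the PI3K complex 3 of 7 (median 0.15) and of initiation 2 of 5 (median 0.13). Of the lipid transfer genes 1 of 7 rose (median 0.13), and that gene, Wdr45, had the largest fold change of the 39 tested. The lipid transfer count was 3 without 4OHT replicate 2 and 2 without 4OHT replicate 3, the fusion count was 3 without EtOH replicate 1 and 3 in DESeq2, and the conjugation count was 4 in DESeq2. Differences between steps were not tested.

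**Figure D2:**
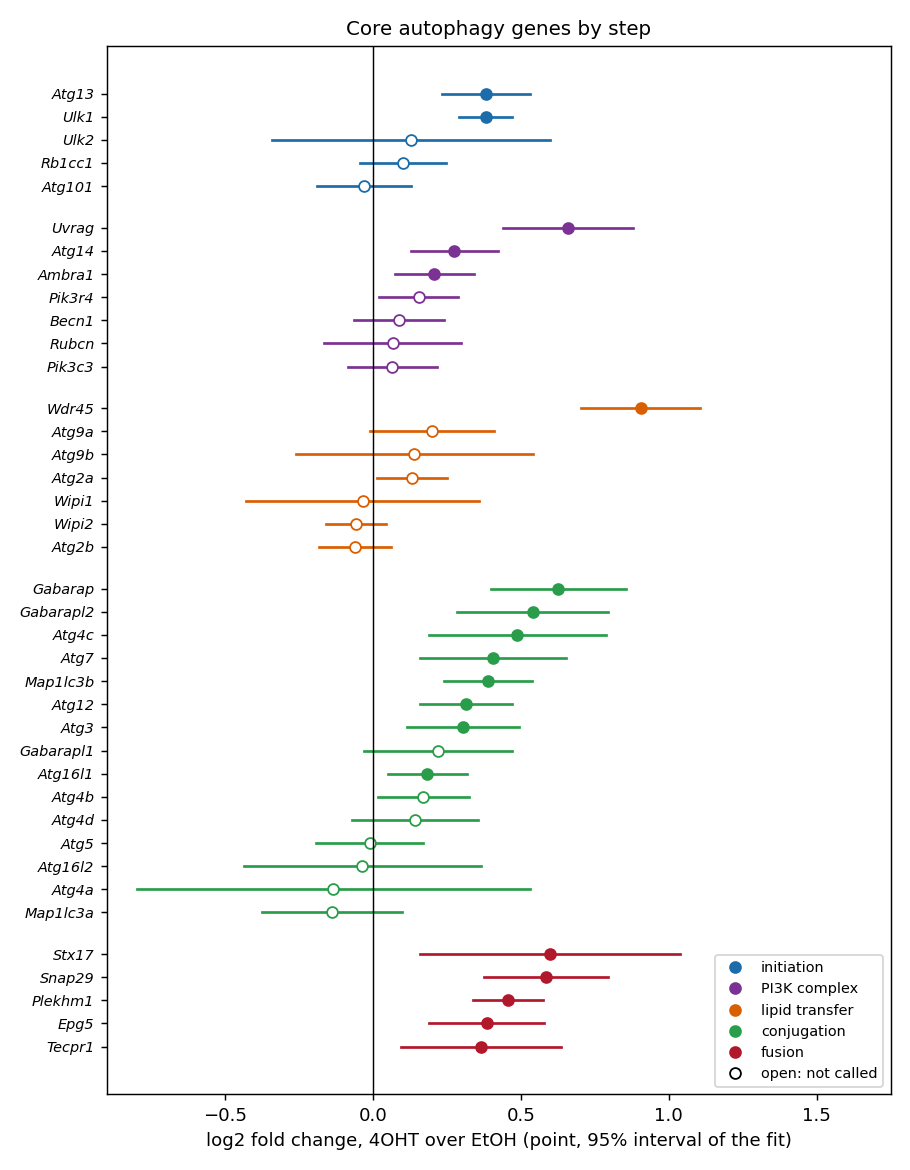
Log2 fold change of each of the 39 tested members, 4OHT over EtOH (horizontal axis), with its 95% interval, by step (colour). Filled points passed the test and open points did not. All 5 fusion genes are filled, whereas Wdr45 is the single filled point among the 7 lipid transfer genes.

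Promoter windows, from 250 bases before to 50 after an annotated start, were found in the RefSeq table for GRCm38 (the assembly also called mm10) for 33 of the 40 members, in 36 windows. No window was listed for Map1lc3a, Epg5, Rb1cc1, Atg16l1, Becn1, Atg12 and Pik3c3. The E-box CACGTG, the same on both strands, was found in 5 of the 36 windows (Atg3, Atg5, Atg7, Atg14 and Rubcn), which is 13.9% beside 7.15% of all 32851 windows and 10.2% of the windows of tested genes. The longer form TCACGTG, searched on both strands (CACGTGA on the other) and always overlapping a CACGTG, was in 4 of the 36 windows, or 11.1%, beside 3.77% of all windows and 6.08% of those of tested genes. The longer palindrome known as the CLEAR consensus was in 0 of 36 (0.326% of all windows and 0.704% of those of tested genes), and TCATGTG, a related motif known as the M-box and searched on both strands, was also in 0 of 36 (3.77% and 1.95%). The 4 windows with the longer form are printed because they hold the motif that MiT/TFE factors are known to bind, with each match in capitals and the rest in lower case. Counted to the first base of the match, Atg3 carried it at 95 and again at 72 bases before the start. In Atg14 the match began 1 base before the start and ran across it. In Atg7 it lay 133 and in Rubcn 89 bases before the start, and both of these starts lie inside the gene's annotated range, not at its outer end. The other Rubcn window, at the gene's outer start, held no match to any of the motifs. Atg7 had no window at its outer start, which was therefore not searched.
Atg3 (chr16:45158579-45158878, plus strand): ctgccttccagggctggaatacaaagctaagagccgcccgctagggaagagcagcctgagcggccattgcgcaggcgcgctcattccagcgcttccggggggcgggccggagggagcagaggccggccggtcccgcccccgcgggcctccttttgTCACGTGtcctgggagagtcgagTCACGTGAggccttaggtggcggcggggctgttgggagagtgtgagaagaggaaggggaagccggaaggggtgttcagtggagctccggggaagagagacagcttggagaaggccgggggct
Atg14 (chr14:47568385-47568684, minus strand): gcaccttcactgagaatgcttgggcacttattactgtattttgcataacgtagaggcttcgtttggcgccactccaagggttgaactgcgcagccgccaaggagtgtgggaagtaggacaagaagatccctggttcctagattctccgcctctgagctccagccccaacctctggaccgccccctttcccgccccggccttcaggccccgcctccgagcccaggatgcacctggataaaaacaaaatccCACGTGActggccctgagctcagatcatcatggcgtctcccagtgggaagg
Atg7 (chr6:114670846-114671145, plus strand): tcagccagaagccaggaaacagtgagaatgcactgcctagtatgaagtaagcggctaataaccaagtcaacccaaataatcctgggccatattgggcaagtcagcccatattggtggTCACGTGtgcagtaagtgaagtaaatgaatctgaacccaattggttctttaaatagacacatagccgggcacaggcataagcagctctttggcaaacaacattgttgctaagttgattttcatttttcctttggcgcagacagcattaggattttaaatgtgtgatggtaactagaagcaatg
Rubcn (chr16:32868317-32868616, minus strand): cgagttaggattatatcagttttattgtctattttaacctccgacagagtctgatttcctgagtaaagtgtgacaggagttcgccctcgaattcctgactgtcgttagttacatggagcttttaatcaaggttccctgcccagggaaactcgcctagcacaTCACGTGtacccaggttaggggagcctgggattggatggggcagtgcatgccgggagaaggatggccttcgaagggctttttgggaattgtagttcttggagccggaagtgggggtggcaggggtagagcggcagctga
Of these 4 genes, Atg3, Atg7 and Atg14 rose and Rubcn did not pass the test. Atg3 lost its call in DESeq2 and without EtOH replicate 1, and Atg7 in DESeq2 and without 4OHT replicate 3. Of the 700 tested genes with the longer form, 215 were called higher, beside 2085 of all 9635 tested genes with a window. Atg5, with CACGTG but not the longer form, did not pass it either. Among tested genes with a window, the longer form was in 10.3% of those called higher (215 of 2085). It was in 6.43% of those not called and in 6.41% of those called lower. A link between motif and rise was not tested. Wdr45, Uvrag and Gabarap, the members with the 3 largest fold changes, had no match to any of the motifs in their windows. The Wdr45 window (X chromosome, 7722677 to 7722976, plus strand) lies inside the gene's annotated range, which begins at 7721987. The outer start of Wdr45 was therefore not searched. A match describes the letters of a window and does not show that Tfe3 binds there.

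Initiation was represented by Ulk1 and Ulk2, the kinases, and by Atg13, Atg101 and Rb1cc1 (FIP200), the subunits that hold and steer them. Ulk1 and Atg13 rose by nearly the same factor and the other 3 did not pass the test. Ulk1 (Entrez Gene 22241; chromosome 5, 110784489 to 110810120) read 182, 185 and 167 CPM with EtOH and 229, 233 and 235 CPM with 4OHT. Every 4OHT library was above every EtOH library, and the rise was 1.30-fold (log2 fold change 0.38, SE 0.05, edgeR adjusted p = 1.1e-13). Atg13 (Entrez Gene 51897; chromosome 2, 91674612 to 91710597), which links the kinase to nutrient signalling, was at 52.2, 56.3 and 57.3 CPM in EtOH and at 75.5, 74.1 and 66.7 CPM in 4OHT. The groups did not overlap here either (1.30-fold, SE of the log2 fold change 0.08, edgeR adjusted p = 6.7e-06). Ulk2 was low, at 4.83, 5.88 and 6.64 CPM in EtOH and 4.99, 6.13 and 7.34 CPM in 4OHT, and the ranges of the groups overlapped. Its log2 fold change of 0.13 had a 95% interval from −0.34 to 0.60, so a rise of the size seen in Ulk1 (0.38) was not excluded. Per kb of gene length, Ulk1 exceeded Ulk2 34.1-fold in EtOH and 42.1-fold in 4OHT, and the ratios of the groups overlapped (exact permutation p = 0.20, adjusted p = 0.37 over 13 pairs). Atg101 and Rb1cc1 were measured more closely, with log2 fold changes of −0.03 (interval −0.19 to 0.13) and 0.10 (interval −0.04 to 0.25). Atg101 changed sign when EtOH replicate 2 was left out, to a log2 fold change of 0.04, and Ulk2 changed sign without 4OHT replicate 3, to −0.03.

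The Vps34 lipid kinase complex consists of the kinase Pik3c3, its regulatory subunit Pik3r4, and Becn1, with either Atg14 or Uvrag as the fourth subunit. Atg14 directs the complex to forming autophagosomes, Uvrag to endosomes and later steps, and Rubcn binds the Uvrag form and inhibits it. The subunits common to both forms did not pass the test, while both alternative subunits rose, Uvrag by more. Uvrag (Entrez Gene 78610; chromosome 7, 98886742 to 99141167) was at 24.6, 25.1 and 17.7 CPM in EtOH and at 36.9, 36.4 and 34.4 CPM in 4OHT. All 4OHT values were above all EtOH values, and the lowest EtOH value was that of replicate 3 (1.58-fold, SE of the log2 fold change 0.11, edgeR adjusted p = 9.3e-08). An antisense model shares 17.6% of the Uvrag exon bases. Atg14 (Entrez Gene 100504663; chromosome 14, 47540893 to 47568434) was at 56.8, 57.9 and 59.0 CPM in EtOH and at 74.2, 68.4 and 68.1 CPM in 4OHT. It rose 1.21-fold without overlap (edgeR adjusted p = 0.0013). Ambra1, a scaffold that brings Becn1 to the ULK complex, rose 1.15-fold, from 72.7 ± 1.27 to 83.9 ± 2.49 CPM (SD, n = 3 each; edgeR adjusted p = 0.0087), a call that DESeq2 did not make (adjusted p = 0.085).

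Becn1 was at 59.2 ± 3.95 CPM in EtOH and 62.6 ± 3.09 CPM in 4OHT (SD, n = 3 each), with a log2 fold change of 0.09 and an interval from −0.06 to 0.24, and 43.9% of its exon bases lie opposite another gene model. Pik3c3 had a log2 fold change of 0.06 (interval −0.09 to 0.22) and Rubcn one of 0.07 (interval −0.17 to 0.30), which was −0.02 without EtOH replicate 3 and −0.0060 without 4OHT replicate 1. These intervals leave out a change of 0.32 on the log2 scale for Becn1, Pik3c3 and Rubcn, though not a smaller one. Pik3r4, at 77.7, 84.1 and 65.7 CPM in EtOH and 85.5, 80.4 and 87.8 CPM in 4OHT, missed the threshold (edgeR adjusted p = 0.061). It passed when EtOH replicate 2 (0.010) or 4OHT replicate 2 (0.025) was left out. Per kb, the ratio of Atg14 to Uvrag was 2.59 in EtOH and 1.95 in 4OHT. It was lower in every 4OHT library than in any EtOH library (exact permutation test, two-sided, p = 0.10, the smallest that 3 against 3 libraries allow, 0.22 after Benjamini-Hochberg adjustment over 13 pairs).

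The lipid transfer step comprises Atg2a and Atg2b, which move lipid between membranes, Atg9a and Atg9b, lipid scramblases carried in vesicles, and Wipi1, Wipi2 and Wdr45 (WIPI4), which read the phosphoinositide mark. Wdr45 (Entrez Gene 54636; X chromosome, 7721987 to 7728201) was at 22.2, 29.2 and 24.1 CPM in EtOH and at 53.8, 44.2 and 44.0 CPM in 4OHT. The groups lay far apart, and the fold change of 1.87 was the largest of the 39 tested members (log2 fold change 0.90, SE 0.10, edgeR adjusted p = 4.1e-15). In GENCODE vM21, 24.7% of its exon bases are shared with another gene model on the same strand, so part of its counts may belong to that model. Wdr45b (WIPI3), its closest relative and outside the 40, was at 81.8 ± 4.77 and 87.8 ± 3.01 CPM (SD, n = 3 each) and did not pass the test (log2 fold change 0.10, edgeR adjusted p = 0.22). Per kb, the Wdr45 level was 0.458 of that of Wdr45b in EtOH and 0.804 in 4OHT, without overlap between groups (exact permutation p = 0.10, adjusted p = 0.22 over the 13 pairs).

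Wipi2, the member of the family that recruits the conjugation enzymes, had the highest level per kb among the 7 (36.2 ± 1.70 CPM per kb in EtOH, SD, n = 3). It was at 138, 149 and 137 CPM in EtOH and at 142, 132 and 134 CPM in 4OHT, with a log2 fold change of −0.06 (interval −0.16 to 0.04). Wipi1, often cited among MiT/TFE targets, was low at 8.66, 6.78 and 10.3 CPM in EtOH and 8.68, 8.48 and 7.97 CPM in 4OHT. Its log2 fold change of −0.04 had an interval from −0.43 to 0.36. Atg2a was at 98.3, 99.9 and 102 CPM in EtOH and at 121, 107 and 104 CPM in 4OHT, higher in each 4OHT library than in any EtOH library, with an edgeR adjusted p of 0.066. Without 4OHT replicate 2 that p was 0.043 and without 4OHT replicate 3 it was 0.022. Atg2b had a log2 fold change of −0.06 (interval −0.18 to 0.06), and the ratio of Atg2a to Atg2b per kb was higher in all 4OHT libraries (1.62 in EtOH and 1.86 in 4OHT, exact permutation p = 0.10, adjusted p = 0.22 over the 13 pairs). Atg9a, which shares 31.8% of its exon bases with a model on the same strand, was at 29.4 ± 2.21 and 33.8 ± 4.14 CPM (SD, n = 3 each; log2 fold change 0.20, edgeR adjusted p = 0.12, but 0.023 once 4OHT replicate 2 was left out). Atg9b was at 7.70 and 8.60 CPM with overlapping groups and an interval of its log2 fold change from −0.26 to 0.54.

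**Figure D3:**
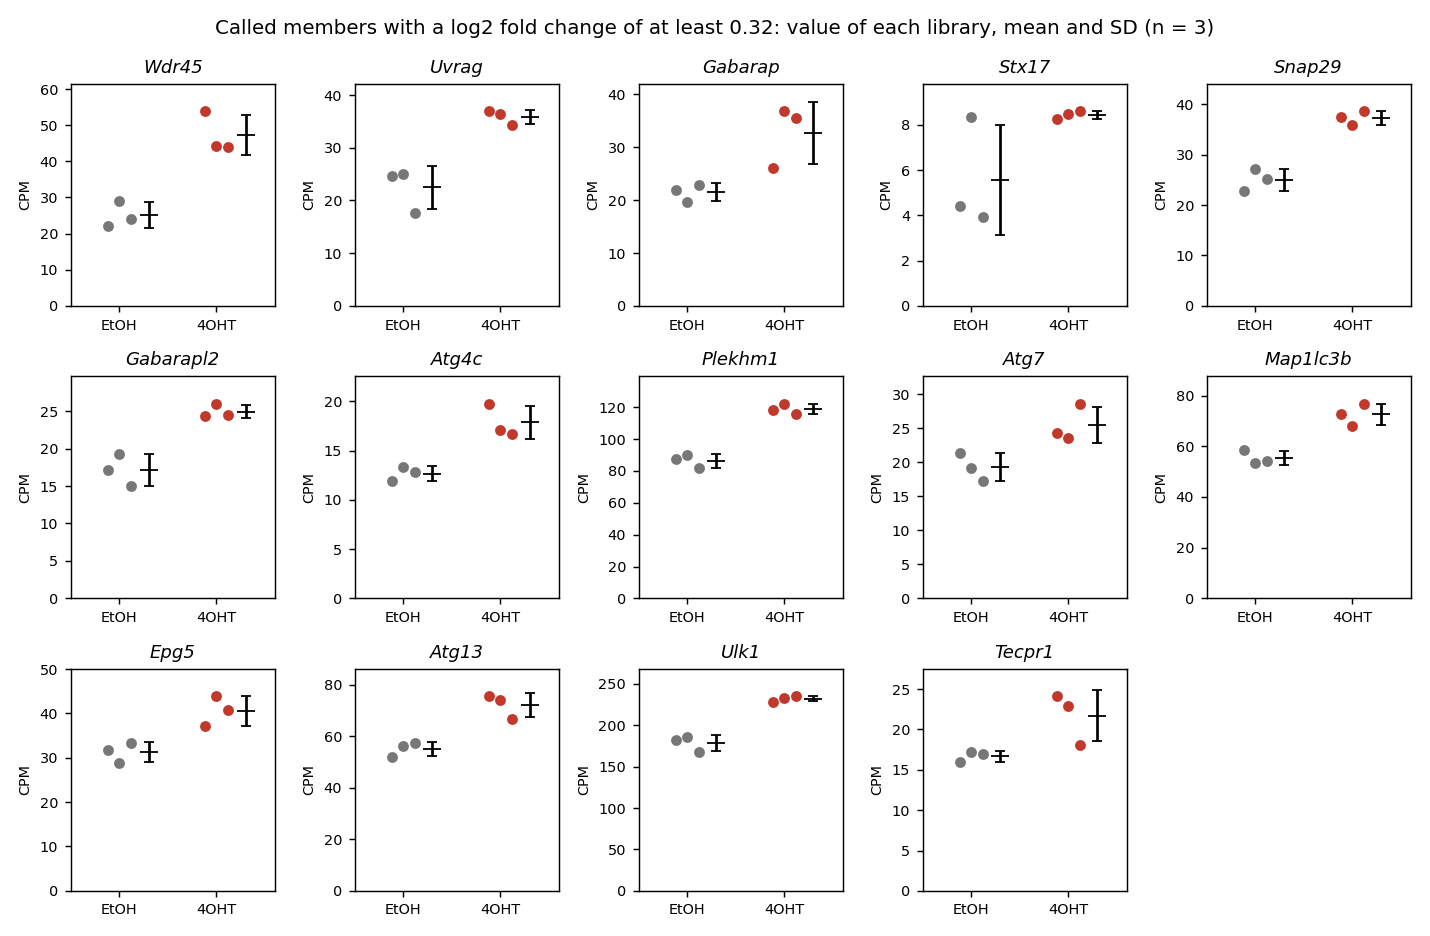
CPM of each library (points; EtOH grey, 4OHT red) for the 14 members called with a log2 fold change of at least 0.32, with the mean and SD of 3 libraries beside them. Each vertical axis starts at 0. The groups are apart in 13 panels, and in Stx17 the EtOH replicate 2 value of 8.36 lies among the 4OHT values.

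The ATG8 proteins are the small ubiquitin-like proteins that coat the autophagosome, here the LC3 genes Map1lc3a and Map1lc3b and the GABARAP genes Gabarap, Gabarapl1 and Gabarapl2. Of the 5 genes 3 rose, and Map1lc3a and Gabarapl1 did not pass the test. Gabarap (Entrez Gene 56486; chromosome 11, 69991370 to 69994949) was at 22.0, 19.7 and 22.9 CPM in EtOH and at 26.0, 36.8 and 35.5 CPM in 4OHT. The groups did not overlap, though 4OHT replicate 1 lay well below the other two (1.54-fold, SE of the log2 fold change 0.12, edgeR adjusted p = 1.2e-06). Gabarapl2 (GATE-16) was at 17.1, 19.2 and 15.0 CPM in EtOH and at 24.3, 26.0 and 24.5 CPM in 4OHT, a rise of 1.45-fold (edgeR adjusted p = 0.00023). Map1lc3b (Entrez Gene 67443; chromosome 8, 121590438 to 121598760), the gene of the LC3 protein most used as an autophagosome marker, was at 58.4, 53.3 and 54.4 CPM in EtOH and at 72.7, 68.2 and 76.7 CPM in 4OHT. It rose 1.31-fold without overlap (SE of the log2 fold change 0.08, edgeR adjusted p = 3.7e-06). Map1lc3a was at 24.4, 24.9 and 26.1 CPM in EtOH and at 23.4, 23.6 and 21.4 CPM in 4OHT. All its 4OHT values were below all its EtOH values, but the difference was small beside its error (log2 fold change −0.14, interval −0.38 to 0.10, edgeR adjusted p = 0.37). Gabarapl1 was at 20.1, 17.9 and 23.9 CPM in EtOH and at 19.97, 24.7 and 26.2 CPM in 4OHT, with overlapping groups (log2 fold change 0.22, interval −0.03 to 0.47). An antisense model shares 28.3% of its exon bases, and the strand setting of the counting is not given in the sources used here.

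The 5 ATG8 genes together were at 107 ± 2.15 CPM per kb in EtOH and 134 ± 6.90 CPM per kb in 4OHT (SD, n = 3 each). Map1lc3a made up 23.4%, 24.7% and 25.03% of that sum in the EtOH libraries and 19.3%, 17.8% and 16.0% in the 4OHT libraries, which did not overlap. Such a share also falls when other genes of the sum rise, and Map1lc3a itself did not pass the test. Map1lc3b was the largest share in both groups, at 30.3% ± 1.17 and 31.7% ± 2.45 (SD, n = 3 each). The level of Map1lc3a relative to Map1lc3b, per kb, was 0.806 in EtOH and 0.560 in 4OHT, a difference of −0.53 on the log2 scale (exact permutation p = 0.10, adjusted p = 0.22 over the 13 pairs). The ratio of Gabarap to Gabarapl1 per kb went the other way, from 1.66 to 2.18, again without overlap between groups (exact permutation p = 0.10, adjusted p = 0.22), and that of Gabarap to Gabarapl2 was 1.10 and 1.13 with overlapping groups. With 3 libraries in each group none of these ratios could reach 0.05.

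**Figure D4:**
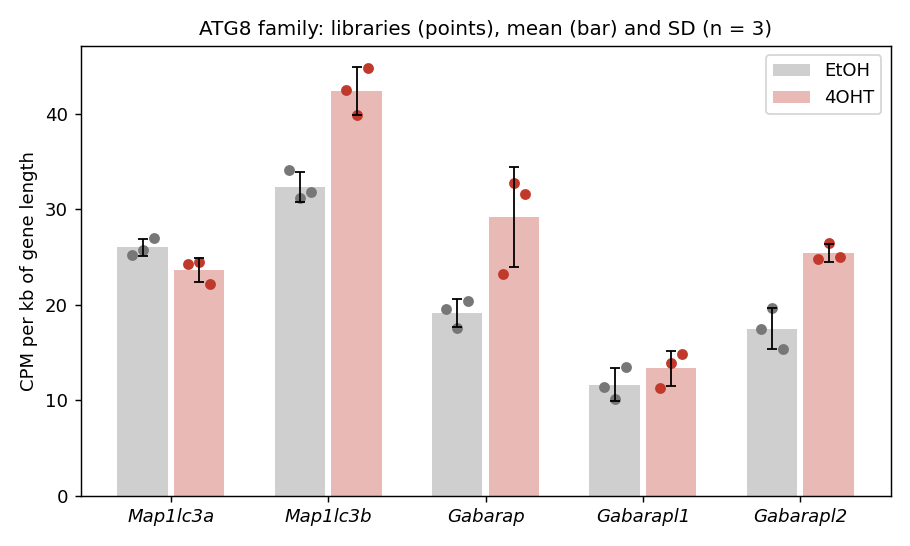
Level of the 5 ATG8 genes in CPM per kb of gene length (vertical axis, from 0), EtOH in grey and 4OHT in red, with libraries as points, the mean as a bar and the SD as a whisker (n = 3). Map1lc3b is highest in both groups, and Map1lc3a is the single gene of the 5 with a lower mean in 4OHT (23.6 beside 26.0).

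ATG8 proteins are trimmed by the ATG4 proteases, activated by Atg7, passed to Atg3 and joined to lipid by a complex of Atg12, Atg5 and Atg16l1, with Atg10 as the enzyme that joins Atg12 to Atg5. Atg7 (Entrez Gene 74244; chromosome 6, 114643127 to 114860604) was at 21.3, 19.2 and 17.2 CPM in EtOH and at 24.3, 23.6 and 28.6 CPM in 4OHT. It rose 1.32-fold (edgeR adjusted p = 0.0048), though not in DESeq2 (adjusted p = 0.075) or without 4OHT replicate 3 (edgeR adjusted p = 0.085). Atg12 rose 1.24-fold, from 50.8 ± 1.47 to 63.4 ± 3.99 CPM (SD, n = 3 each; edgeR adjusted p = 0.00046). Atg3 rose by the same factor, from 34.2 ± 3.53 to 41.9 ± 1.43 CPM (edgeR adjusted p = 0.0058, and 0.11 without EtOH replicate 1 and 0.087 in DESeq2). Atg16l1 rose 1.14-fold by the test, but its groups overlapped, at 82.6, 78.2 and 84.4 CPM in EtOH and 109, 88.2 and 84.2 CPM in 4OHT. The edgeR adjusted p was 0.020, and it rose to 0.43 on leaving out 4OHT replicate 1, to 0.085 on leaving out EtOH replicate 2 and to 0.061 with upper quartile factors; DESeq2 gave 0.16. Atg5 was measured closely and did not pass the test, with 40.6 ± 2.18 and 40.2 ± 1.93 CPM (SD, n = 3 each; log2 fold change −0.01, interval −0.19 to 0.17). Atg10, with 20, 7 and 8 counts in the EtOH group and 4, 7 and 16 counts with 4OHT, was the member too low to be kept for testing. Atg16l2, a relative of Atg16l1, was at 8.33 and 8.16 CPM with an interval of its log2 fold change from −0.44 to 0.36.

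Among the ATG4 proteases Atg4c alone was called. It was at 11.9, 13.3 and 12.8 CPM in EtOH and at 19.8, 17.1 and 16.7 CPM in 4OHT, without overlap (1.40-fold, edgeR adjusted p = 0.0053, and 0.066 in DESeq2). Atg4b, the protease with most activity towards ATG8 proteins, held 52.6% of the family's summed level per kb in EtOH and 51.8% in 4OHT. It was at 51.8, 59.2 and 53.4 CPM in EtOH and at 59.7, 61.9 and 62.8 CPM in 4OHT, higher in each 4OHT library, and missed the threshold (edgeR adjusted p = 0.070), which it passed once EtOH replicate 2 was left out (0.029). Atg4d had a log2 fold change of 0.14 (interval −0.07 to 0.35), and an antisense model shares 19.3% of its exon bases. Atg4a was close to the lower limit, with 10 to 20 counts in each library and an interval from −0.80 to 0.53. Per kb, Atg4c stood at 0.359 of Atg4d in EtOH and at 0.459 in 4OHT, with no overlap between groups (exact permutation p = 0.10, adjusted p = 0.22 over the 13 pairs).

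The fusion genes encode the autophagosomal SNARE proteins Stx17 and Snap29 and the tethers and adaptors Epg5, Plekhm1 and Tecpr1, which link autophagosomes to late endosomes and lysosomes. All 5 were called higher. Plekhm1 (Entrez Gene 353047; chromosome 11, 103364275 to 103412705), an adaptor that binds Rab7 and ATG8 proteins, was at 87.4, 90.0 and 81.7 CPM in EtOH and at 118, 122 and 116 CPM in 4OHT. It rose 1.37-fold, with the smallest SE of the step (0.06 on the log2 scale, edgeR adjusted p = 1.5e-11). Snap29 (Entrez Gene 67474; chromosome 16, 17406000 to 17430826) was at 22.8, 27.1 and 25.1 CPM in EtOH and at 37.5, 35.9 and 38.6 CPM in 4OHT, a rise of 0.58 on the log2 scale (edgeR adjusted p = 8.1e-07). Epg5 was at 31.8, 28.7 and 33.2 CPM in EtOH and at 37.1, 43.8 and 40.8 CPM in 4OHT, a rise of 1.30-fold (edgeR adjusted p = 0.00060). In none of these 3 genes did the groups overlap.

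Stx17 and Tecpr1 rested on fewer counts. Stx17 was at 4.43, 8.36 and 3.94 CPM in EtOH (22, 37 and 16 counts) and at 8.25, 8.48 and 8.59 CPM in 4OHT, so EtOH replicate 2 lay among the 4OHT values. It rose 1.51-fold (edgeR adjusted p = 0.022), a call lost when EtOH replicate 1 (edgeR adjusted p = 0.18), EtOH replicate 3 (0.17) or 4OHT replicate 3 (0.054) was left out and in DESeq2 (0.18). Without EtOH replicate 2 its log2 fold change was 1.00. Tecpr1 was at 15.9, 17.2 and 17.0 CPM in EtOH and at 24.1, 22.9 and 18.1 CPM in 4OHT, without overlap (1.29-fold, edgeR adjusted p = 0.022). Leaving out EtOH replicate 1 (adjusted p = 0.095), 4OHT replicate 1 (0.12) or 4OHT replicate 2 (0.082) ended that call, as did DESeq2 (0.15). The fusion step therefore held 3 members that were called in every alternative (Plekhm1, Snap29 and Epg5) and 2 that were not.

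Values of the EtOH and 4OHT libraries did not overlap in 20 of the 39 tested members, 19 of them higher in 4OHT (25.1% of all tested genes were higher without overlap) and 1, Map1lc3a, lower (23.7%). Of the 20 members that did not pass the test, 10 had a 95% interval that stayed within 0.32 on the log2 scale in both directions, and the intervals of the other 10 reached beyond it. Among all 40 members the level per kb spanned from 0.965 (Stx17) to 44.5 (Atg101) CPM per kb in EtOH. In 4OHT it spanned from 0.959 (Atg10) to 44.7 (Ulk1) CPM per kb, and Ulk1, Atg101 and Map1lc3b were the 3 highest (44.7 ± 0.635, 43.6 ± 1.68 and 42.4 ± 2.49 CPM per kb, SD, n = 3 each), with ranges that overlapped between neighbours.

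**Figure D5:**
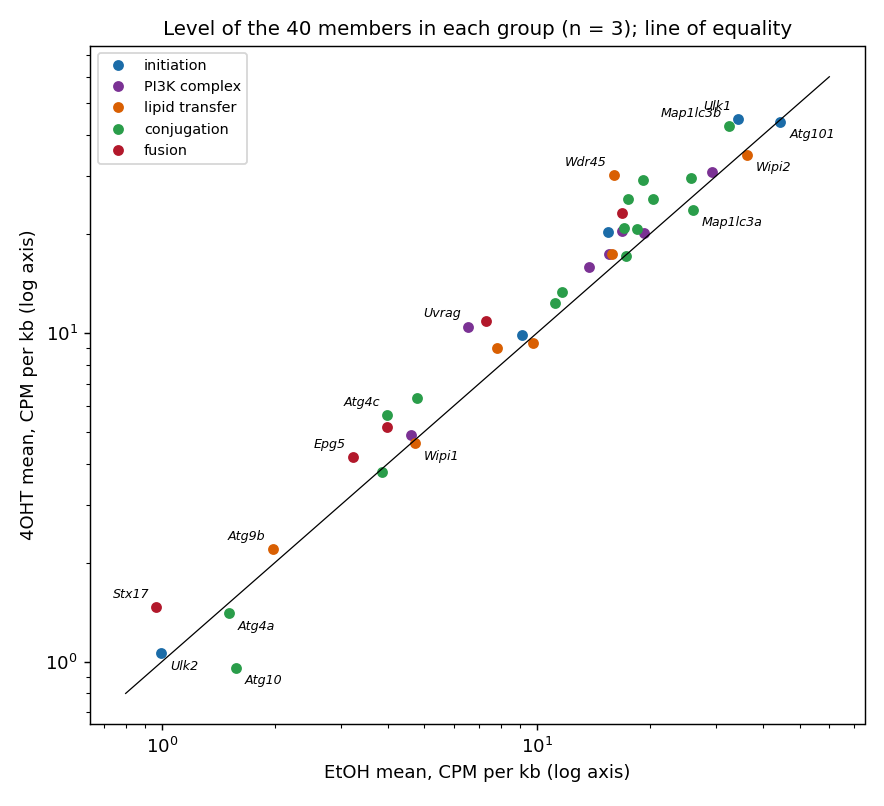
Mean level of the 40 members in EtOH (horizontal) and 4OHT (vertical), both in CPM per kb on log axes, coloured by step, with the line of equal levels (n = 3 per group). Most points lie on or above the line, from Stx17 and Ulk2 near 1 CPM per kb to Ulk1 and Atg101 above 40.

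A second list held 23 further genes that act in the same steps, of which 22 passed the filter. In it 10 rose and 0 were called lower by edgeR, and the median log2 fold change was 0.18 (21.4% of all tested genes were called higher). The count called lower was 1 with DESeq2's size factors in edgeR, with upper quartile factors, in limma-voom, without 4OHT replicate 1 and without 4OHT replicate 3. The count called higher was 9 with upper quartile factors and with no filter on low counts. It was also 9 when any single library other than 4OHT replicate 2 was left out. Of the genes on Becn1 and its regulators, Bcl2l1 (BCL-XL), a Becn1 inhibitor also known for blocking apoptosis, rose 1.72-fold from 66.5 ± 5.62 to 115 ± 2.10 CPM (SD, n = 3 each; edgeR adjusted p = 7.9e-25), and Sh3glb1, which binds the Uvrag form, rose 1.22-fold. Tmem41b, a scramblase of the endoplasmic reticulum, rose 1.73-fold (edgeR adjusted p = 2.0e-10) and Zfyve1 (DFCP1), a marker of the sites where autophagosomes form, 1.38-fold, while Vmp1 had a log2 fold change of 0.10 (edgeR adjusted p = 0.32). Trappc8, of a vesicle tethering complex, rose 1.24-fold and Trp53inp2, which binds ATG8 proteins, 1.20-fold (edgeR adjusted p = 0.0385 for Trp53inp2). On the lysosomal side of fusion, the SNARE gene Vamp8 rose 1.97-fold, from 14.7 ± 2.09 to 28.7 ± 2.30 CPM (SD, n = 3 each; edgeR adjusted p = 2.2e-11), and the GTPase gene Rab7 rose 1.23-fold. Of the 6 subunits of the HOPS tether, Vps11 and Vps18 each rose 1.41-fold, and Vps16, Vps33a, Vps39 and Vps41 had log2 fold changes between −0.10 and 0.05 and did not pass the test. Ykt6, a SNARE that can act in place of Stx17, was at 110.2 and 109.9 CPM. Tbc1d14 was lower in every 4OHT library (63.8 ± 1.73 and 56.7 ± 3.26 CPM, SD, n = 3 each) with an edgeR adjusted p of 0.054, and Rubcnl had 0 counts in all 6 libraries.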

How the data were processed

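The authors deposited raw counts, a column for each library, beside the length of every gene; per the labels' protocols, the kit was a stranded one for mRNA. The submitters' processing notes name fastp, STAR, featureCounts and mm10 without roles or versions. For the annotation, strand setting and treatment of ambiguous reads, nothing was given in the sources used. Genes were filtered with filterByExpr (minimum count 10, total 15), scaled with TMM factors and tested with edgeR 4.0.16 (robust quasi-likelihood fit; R 4.3.3); p-values were adjusted by Benjamini-Hochberg over all tested genes. Each SE was derived from the log2 fold change and F. Of 40 members, 15 share exon bases with another GENCODE vM21 model. Shares of exon bases are over all annotated exons of a gene (7065 bases for Becn1), not over its deposited length (2031 bases). All replicate pairs differed by more than counting error. All 40 members were named by rule; members, steps and lists were chosen with earlier results of these data known. Alternatives were other scalings and filters, a replicate block, each library left out in turn, limma-voom (limma 3.58.1) and DESeq2 1.42.0. Ratios between genes used counts per base of length with a pseudocount of 0.5, under exact permutation tests. On simulated data for the same comparison (12144 genes), 38% of genes changed 1.25-fold, 72% at 1.5-fold and 88% at 2-fold were recovered. The simulation changed only 50 genes at each size and gave every gene the same spread (common dispersion 0.00129). In the real data 42% of tested genes were called, so these rates may not hold there.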

Additional observations from a re-analysis of the deposited data

How the results depend on the processing

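The count of members called higher was 19 with edgeR and 12 with DESeq2; in the 6 other fits on all 6 libraries it was 18 or 19, and it lay between 16 and 21 when 1 library was left out. The count called lower was 0 in all 13 alternatives. Of the 19 members called, 12 were called in all 13 alternatives and 7 lost the call in at least 1 (Ambra1, Atg3, Atg4c, Atg7, Atg16l1, Stx17 and Tecpr1). Of the 20 members not called, 8 changed sign when some single library was left out (Ulk2, Atg101, Rubcn, Atg9b, Wipi1, Atg4a, Atg5 and Atg16l2, all within their intervals). The replicate number was fitted as a block: 19 members were higher with this replicate block and 0 lower, and 2585 of all genes were higher in place of 2643. Same-numbered libraries did not deviate together (correlations of −0.0226, −0.0161 and −0.0170), so the numbers were not taken as pairs. Ratios between related genes reversed when a replicate number was left out in both groups for 4 pairs whose groups overlapped: Atg9a to Atg9b (−0.21 without replicate 1), Wipi1 to Wipi2 (−0.19 without replicate 2), Gabarap to Gabarapl2 (−0.17 without replicate 2) and Atg4a to Atg4b (0.040 without replicate 3), on the log2 scale. Counting TCATGTG in place of TCACGTG gave 0 members. Depth limits the low members: Ulk2, Atg4a, Atg9b, Wipi1, Atg10, Atg16l2 and Stx17 had means under 10 CPM. The causes of these differences were not tested.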
